A study of Homo sapiens with 12 samples.

Results

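Messenger RNA levels of 10 genes of growth factor signalling were described in human lung adenocarcinoma cells: the receptor tyrosine kinases MET, AXL, FGFR1, FGFR2, FGFR3, PDGFRA and PDGFRB and the ligands FGF2, PDGFA and PDGFC. Every array probe set annotated to only 1 of these symbols was taken, which gave 37 probe sets for 10 genes of 54613 probe sets for 19775 genes. Annotation alone decided which probe sets were taken, while the genes were chosen with earlier results of these data known. Of the 37, 26 lay above the median signal of their own array on at least 3 of 12 arrays and were tested among 31890 such probe sets. These were 4 of 4 for MET, 2 of 2 for AXL, 6 of 7 for FGFR1, 4 of 11 for FGFR2, 2 of 2 for FGFR3, 1 of 4 for PDGFRA, 1 of 1 for PDGFRB and 2 of 2 each for PDGFA, PDGFC and FGF2.

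Receptor tyrosine kinases are membrane proteins that pair when a ligand binds outside the cell, phosphorylate each other inside it, and pass the signal to the RAS and ERK cascade, to PI3K and to phospholipase C gamma. MET binds hepatocyte growth factor, AXL binds GAS6, FGF receptors bind fibroblast growth factors together with heparan sulfate, and PDGF receptors bind dimers of the PDGF chains. In lung adenocarcinoma, MET and AXL are known for roles in motility and in resistance to inhibitors of the EGF receptor, and PDGF receptors are best known from mesenchymal cells.

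The 4 groups held 3 arrays each, labelled as biological replicates. CL1-0 and CL1-5 are sublines of the same human lung adenocarcinoma line, CL1-5 being known as the more invasive of the pair, and each is 1 established line, so a difference between them concerns these lines only. All cells were kept overnight in a microfluidic chip with serum-containing medium and then spent 2 h in serum-free medium, with a direct-current electric field of either 0 or 300 mV/mm, before trypsin detached them for RNA extraction. The comparisons ask how the lines differ with and without the field, and how each line's transcripts answer to it.

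Array medians lay between 60.7 and 72.4 signal units, or 5.92 and 6.18 on the log2 scale used throughout; the number of arrays limits the precision. The 4 arrays of replicate 1 stood apart. They gave 5.92 to 21.2 units for the bacterial dap spike-in against 789 to 1063 on the other 8, and the second principal component (26.7% of variance, after 44.0% along the first) separated them. All 18 pairs of same-numbered arrays from different groups deviated together, so values from a fit with the replicate number as a block are given beside the results on these genes and the counts below where they change a call. Of 11 epithelial and lung adenocarcinoma markers, 7 to 10 were above the array median on any array, with summed signals of 4527 to 25600 in CL1-0 and 17219 to 33922 in CL1-5 and the keratin KRT18 between 11.24 and 14.82. EPCAM and CDH1, which hold epithelial cells together, were lower in CL1-5 without field by −3.96 ± 0.84 (SE; adjusted p = 0.00898) and −3.46 ± 0.99 (adjusted p = 0.0413). The call on CDH1 ended in 10 of 24 other settings. Of 4 leukocyte markers, PTPRC, CD14 and LYZ were above the median on 0 arrays and CD3E on 6 of 12, at 5.35 to 6.83, with sums of 91.3 to 182 and no call on CD3E between the lines (0.26 ± 0.50). Of 8 fibroblast markers 1 to 5 were above the median, with summed signals of 532 to 1146 in CL1-0 and 352 to 620 in CL1-5, and POSTN, a matrix protein, was lower in CL1-5 by −3.75 ± 0.58 (adjusted p = 0.00126). Of 6 endothelial markers 2 to 3 were above the median, with sums of 247 to 333 in CL1-0 and 559 to 2702 in CL1-5, where the junction gene CLDN5 was higher by 4.90 ± 0.65 (adjusted p = 0.000443). With the block the calls among tested markers went from 0 higher and 2 lower to 1 and 3 of 10 (epithelial), from 0 and 1 to 0 and 2 of 5 (fibroblast) and from 1 and 0 to 2 and 0 of 3 (endothelial). Any part of these markers in the differences below was not tested.

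Without the field, FGF2, FGFR2 and FGFR3 were lower and AXL and PDGFRA higher in CL1-5 than in CL1-0. With limma's moderated test and a Benjamini-Hochberg adjusted p of 0.05 over all 31890 probe sets, 8 of the 26 were called, 3 higher (both of AXL and that of PDGFRA) and 5 lower (both of FGF2, 2 of FGFR2 and 1 of FGFR3). Over all probe sets tested 12.1% were called, 6.53% higher and 5.58% lower. The median difference of the 26 was −0.46, beside −0.01 over all probe sets. With the replicate block 13 of the 26 were called, against 28.5% of all: 3 higher (14.2% of all) and 10 lower (14.4%). The 3 arrays of each line did not overlap in 13 of the 26, against 28.8% of all probe sets: 3 higher (14.3%) and 10 lower (14.5%).

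Under the field the same 8 probe sets passed, and with them 1 probe set of FGFR1 and the other of FGFR3, both lower. This made 10 of 26 (3 higher, 7 lower), where 13.4% of all probe sets were called, 7.03% higher and 6.41% lower. The median was −0.94, beside −0.08 over all. With the block 15 of 26 were called, against 31.6%: 3 higher (14.7%) and 12 lower (16.9%). The lines did not overlap in 15 of 26, against 30.8%: 3 higher (14.6%) and 12 lower (16.2%). In bulk RNA such as this, fewer cells with a transcript and less transcript per cell cannot be told apart.

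**Figure D1:**
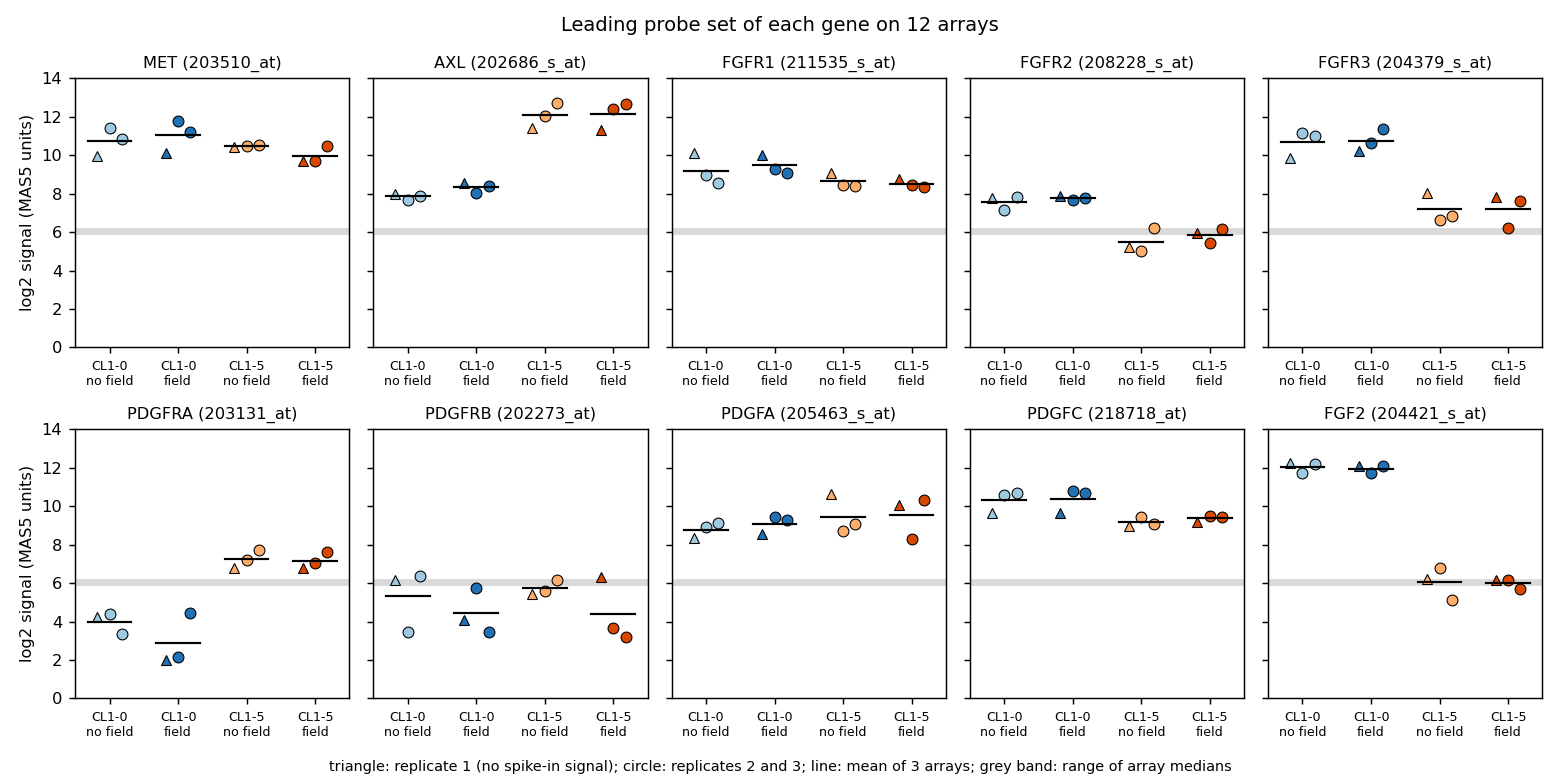
Level of the leading probe set (highest mean) of each of the 10 genes on 12 arrays, as log2 of the MAS5 signal, by line and field; points are arrays (triangles replicate 1, circles replicates 2 and 3), lines are means of 3 and the grey band is the range of array medians, 5.92 to 6.18. FGF2 sat at 11.73 or above in CL1-0 and at 6.80 or below in CL1-5, AXL lay the other way round, and in no gene did field and no field separate as the lines did in those genes.

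The sequences before the starts of the 5 genes whose lines differed are shown because these genes set the lines apart in opposite directions. Each run is the 250 bases before the most upstream start in the RefSeq table (build GRCh38.p14), 5′ to 3′ on the gene's strand. They are chr4:122826581-122826830 (plus strand) for FGF2, chr10:121598445-121598694 (minus) for FGFR2, chr4:1793043-1793292 (plus) for FGFR3, chr19:41218973-41219222 (plus) for AXL and chr4:54229043-54229292 (plus) for PDGFRA. The table holds 5 starts for FGFR2 and 2 each for AXL and PDGFRA. It had an entry for 8 of the 10 genes, FGFR1 and PDGFC being the others. Capitals mark GGGCGG, the GC box bound by SP factors, or its reverse complement CCGCCC.
FGF2: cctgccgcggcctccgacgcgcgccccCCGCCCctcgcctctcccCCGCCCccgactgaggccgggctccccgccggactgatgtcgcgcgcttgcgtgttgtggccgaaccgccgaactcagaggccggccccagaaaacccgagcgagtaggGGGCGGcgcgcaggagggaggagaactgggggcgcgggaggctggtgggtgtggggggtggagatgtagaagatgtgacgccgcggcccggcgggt
FGFR2: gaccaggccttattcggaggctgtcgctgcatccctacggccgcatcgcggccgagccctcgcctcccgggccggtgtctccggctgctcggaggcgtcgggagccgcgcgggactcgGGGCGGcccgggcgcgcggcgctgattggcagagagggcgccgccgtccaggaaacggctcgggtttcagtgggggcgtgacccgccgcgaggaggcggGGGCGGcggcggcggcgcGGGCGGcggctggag
FGFR3: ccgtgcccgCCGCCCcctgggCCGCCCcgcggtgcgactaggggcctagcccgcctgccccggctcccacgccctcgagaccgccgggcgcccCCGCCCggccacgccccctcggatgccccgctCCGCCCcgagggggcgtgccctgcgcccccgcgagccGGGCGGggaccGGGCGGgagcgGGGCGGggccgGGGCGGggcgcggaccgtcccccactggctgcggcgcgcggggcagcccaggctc
AXL: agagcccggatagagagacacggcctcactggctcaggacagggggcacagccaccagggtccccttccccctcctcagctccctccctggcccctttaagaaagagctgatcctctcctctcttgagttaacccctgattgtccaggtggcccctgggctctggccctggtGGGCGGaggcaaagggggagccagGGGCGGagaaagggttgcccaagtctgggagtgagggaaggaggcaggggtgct
PDGFRA: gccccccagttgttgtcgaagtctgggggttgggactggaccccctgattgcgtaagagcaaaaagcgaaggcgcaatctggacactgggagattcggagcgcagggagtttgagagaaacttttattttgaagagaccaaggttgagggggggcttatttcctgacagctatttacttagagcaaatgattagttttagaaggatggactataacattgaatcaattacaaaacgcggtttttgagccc
GGGCGG occurred 3 times in FGF2, 3 in FGFR2, 8 in FGFR3, 2 in AXL and 0 times in PDGFRA, and 42.6% of 35116 promoter windows of this length held it on either strand. GC content was 75.2% for FGF2, 78.4% for FGFR2, 86.8% for FGFR3, 64.4% for AXL and 46.8% for PDGFRA, against a median of 58% over all windows. The E-box CAGGTG occurred once, in AXL, 106 bases before the start (17.5% of windows). TATAAA (10.7%), the AP-1 motif TGACTCA (4.2%) and the TEAD motif GGAATG (11.9%) occurred in 0 of the 5 windows. All were searched on both strands, and a match is a description of the letters only.

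Among the ligands, FGF2 differed most. FGF2 is basic fibroblast growth factor, a heparin-binding ligand of all the FGF receptors that leaves cells without a signal peptide. Its leading probe set, 204421_s_at, read 12.25, 11.73 and 12.20 on the CL1-0 arrays without field and 6.22, 6.80 and 5.14 on those of CL1-5. The lines did not overlap, and CL1-5 lay at about the array median, above it on 2 of 3 arrays. The difference was −6.01 ± 0.37 (SE; adjusted p = 1.87e-06), which is at least 52.9-fold lower once values below their own array's median are raised to it. Under the field the levels were 12.08, 11.73 and 12.07 in CL1-0 and 6.18, 6.14 and 5.71 in CL1-5, a difference of −5.95 ± 0.37 (adjusted p = 2.15e-06; at least 58.0-fold lower).

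The other FGF2 probe set, 204422_s_at, read 11.61, 11.60 and 12.12 in CL1-0 without field and 1.54, 5.86 and 2.17 in CL1-5, below the median on all 3 arrays. Its difference of −8.59 ± 1.39 (adjusted p = 0.00168) is therefore a bound of at least 52.4-fold lower. Under the field it was −7.99 ± 1.39 (adjusted p = 0.0027; at least 54.4-fold). The fitted values of this probe set rest on readings near zero, while the bounds of both probe sets lie close together. Their log2 values correlated at 0.93 over the 12 arrays, a description in which the points share the line difference. FGF2 was called in all 24 other settings that could test it for the leading probe set and in all 23 for the other, in both comparisons.

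PDGFC, a PDGF chain that needs a protease to remove its CUB domain before it binds PDGFRA, was lower in CL1-5 by a smaller step. Without field 218718_at read 9.66, 10.60 and 10.70 in CL1-0 and 8.96, 9.46 and 9.10 in CL1-5. There was no overlap between lines, and replicate 1 was the lowest array of each. The difference was −1.15 ± 0.36, which missed the threshold (adjusted p = 0.0575) and passed it with the replicate block (adjusted p = 0.00119). Under the field it was −1.004 ± 0.36 (adjusted p = 0.0888, and 0.00264 with the block). The other probe set, 222719_s_at, gave −1.52 ± 0.57 without field (adjusted p = 0.119, and 0.0115 with the block) and −0.92 ± 0.57 under it (adjusted p = 0.355). Without the CL1-0 no-field array of replicate 1 the first difference of 218718_at was −1.48 and passed (adjusted p = 0.0207). It passed at −1.15 as well without the CL1-0 field array of replicate 1 (adjusted p = 0.0256), with a stricter signal filter (0.0477) and with 1 probe set per gene (0.04). It was called in 2 of 12 fits that left out an array and in 5 of 12 other settings.

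PDGFA, the chain whose homodimer binds PDGFRA, was not called. Its leading probe set, 205463_s_at, read 8.34, 8.91 and 9.11 in CL1-0 without field and 10.62, 8.70 and 9.05 in CL1-5, so only replicate 1 stood above CL1-0. The difference was 0.67 ± 0.58 (95% interval −0.59 to 1.94; adjusted p = 0.57). On the 8 arrays with spike-in signal alone it was −0.13, while replicate 1 by itself differed by 2.28. Under the field CL1-5 read 10.05, 8.28 and 10.34 and the difference was 0.47 ± 0.58 (adjusted p = 0.679). The spread among CL1-5 arrays, an SD of 1.02 without and 1.12 with the field, was wider than that of CL1-0, at 0.40 and 0.45. The other probe set, 216867_s_at, was likewise highest on the replicate 1 arrays of CL1-5, at 8.30 and 7.80.

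Of the FGF receptors, FGFR3 showed the largest difference with both lines above the array median. FGFR3 is a receptor of epithelial and skeletal tissues. On 204379_s_at it read 9.84, 11.15 and 11.01 in CL1-0 without field and 8.04, 6.65 and 6.86 in CL1-5, all above the array medians. CL1-5 was lower by −3.48 ± 0.53 (adjusted p = 0.00111), or 11.2-fold, and the lines did not overlap. The pair of replicate 1 differed by −1.80 and those of replicates 2 and 3 by −4.50 and −4.15. Under the field the difference was −3.52 ± 0.53 (adjusted p = 0.00106; 11.5-fold). The weaker probe set 204380_s_at read 7.13, 6.55 and 6.97 in CL1-0 and 5.02, 5.51 and 5.24 in CL1-5, these last below the array median. It gave −1.63 ± 0.52 without field (adjusted p = 0.067, and 0.0199 with the block) and −2.16 ± 0.52 under it (adjusted p = 0.0172), at least 2.25-fold lower. This last call ended without the CL1-0 field array of replicate 1 (adjusted p = 0.0538) or 3 (0.078) or the CL1-5 field array of replicate 2 (0.0511), and with only the groups compared in the fit (0.0735). Conversely the difference without field passed when the CL1-5 field array of replicate 2 (0.03) or 3 (0.0476) was left out.

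FGFR2, whose splice forms separate epithelial from mesenchymal cells, was called lower in CL1-5 on 2 of its 4 tested probe sets. The leading one, 208228_s_at, read 7.78, 7.17 and 7.81 in CL1-0 without field and 5.24, 5.01 and 6.19 in CL1-5. The difference was −2.11 ± 0.39 (adjusted p = 0.00398), and since 1 of 3 CL1-5 arrays was above the median it is at least 2.74-fold. Under the field it was −1.95 ± 0.39 (adjusted p = 0.00621; at least 3.24-fold).

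On 203638_s_at the levels were 6.91, 7.90 and 7.71 in CL1-0 and 3.13, 2.39 and 4.78 in CL1-5, giving −4.07 ± 0.98 (adjusted p = 0.018; at least 2.72-fold) and, under the field, −4.13 ± 0.98 (adjusted p = 0.0161; at least 3.29-fold). This pair of calls was fragile. The call without field ended without the CL1-0 no-field array of replicate 2 (adjusted p = 0.0692) or 3 (0.0671) or the CL1-5 no-field array of replicate 2 (0.0695). The call under it ended without the CL1-0 field array of replicate 2 (0.0605) or 3 (0.061) or the CL1-5 field array of replicate 2 (0.0511), and with only the groups compared in the fit (0.0523). On 203639_s_at, near or below the median throughout, the difference of −4.05 ± 1.29 was not called (adjusted p = 0.0644) and is bounded at 1.12-fold; it passed in other settings, such as a block for spike-in batch (adjusted p = 0.044). The last, 208229_at, gave 0.75 ± 1.08 (95% interval −1.60 to 3.10), with its lowest reading, 2.91, on a CL1-0 array of replicate 1. Without that array it was −0.63, and it ran up to 1.53 with another left out. The 7 FGFR2 probe sets that were not tested lay above the array median on at most 1 of 12 arrays each.

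FGFR1, the receptor most often named with mesenchymal traits, was not called without field on any of its 6 tested probe sets. Its leading probe set, 211535_s_at, read 10.10, 8.99 and 8.54 in CL1-0 without field and 9.09, 8.45 and 8.38 in CL1-5. The lines overlapped, and replicate 1 was the highest array of each line. The difference was −0.57 ± 0.40 (adjusted p = 0.462). Under the field it was −0.95 ± 0.40 (adjusted p = 0.157, and 0.00388 with the block). On 226705_at the levels were 8.92, 8.68 and 8.47 in CL1-0 without field and 7.90, 7.90 and 7.72 in CL1-5, which did not overlap (−0.85 ± 0.30, adjusted p = 0.0974, and 0.0149 with the block).

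Under the field 226705_at read 9.41, 9.19 and 8.24 in CL1-0 and 7.95, 7.93 and 7.86 in CL1-5, and passed at −1.04 ± 0.30 (adjusted p = 0.0419). That call was close to the threshold: it ended in 9 of 12 fits that left out an array (adjusted p up to 0.148, without the CL1-0 field array of replicate 2) and in 5 of 11 other settings. The fits that kept it left out replicate 1 of CL1-0 or CL1-5 without field, or the CL1-0 field array of replicate 3. Of the other probe sets, 210973_s_at and 207937_x_at missed the threshold under the field (adjusted p = 0.261 and 0.0763) and passed with the block, at −1.35 ± 0.31 (adjusted p = 0.0056) and −1.66 ± 0.33 (adjusted p = 0.00219). Without field 210973_s_at passed with the block as well, at −1.04 ± 0.31 (adjusted p = 0.0254, and 0.441 without it). That difference ran from −1.48 to −0.22 with an array left out, −0.22 being without the CL1-0 no-field array of replicate 1, and was −0.57 on the 8 arrays with spike-in signal. The other, 207937_x_at, passed under the field without the CL1-0 no-field array of replicate 1 (adjusted p = 0.0476). 210973_s_at was high on the CL1-0 arrays of replicate 1, at 10.68 and 10.42, where the other CL1-0 arrays read 8.17 to 8.46. The remaining 222164_at and 215404_x_at gave differences between −0.39 and 0.48, none called. Over the 12 arrays 222164_at correlated at −0.53 with the leading probe set, so the probe sets of this gene did not move as one.

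AXL was higher in CL1-5 on both of its probe sets. AXL is a receptor of the TAM family, which recognises phosphatidylserine through GAS6 and is often high in mesenchymal carcinoma cells. Its leading probe set, 202686_s_at, read 7.99, 7.69 and 7.88 in CL1-0 without field and 11.45, 12.06 and 12.75 in CL1-5. The lines lay more than 3 log2 units apart at their nearest arrays. CL1-5 was higher by 4.23 ± 0.38 (adjusted p = 2.69e-05), or 18.7-fold, and by 3.80 ± 0.38 (adjusted p = 6e-05), or 13.9-fold, under the field, where CL1-0 read 8.55, 8.03 and 8.39 and CL1-5 11.32, 12.40 and 12.66. The difference in the pair of replicate 1 was 3.45, against 4.37 and 4.86 in the others.

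The other AXL probe set, 202685_s_at, read 4.75, 3.01 and 5.96 in CL1-0, below the array median, and 8.91, 8.36 and 8.73 in CL1-5. It was higher by 4.09 ± 0.63 (adjusted p = 0.00115), at least 6.43-fold, and under the field by 3.76 ± 0.63 (adjusted p = 0.00208), at least 5.44-fold. Both probe sets were called in every other setting run for them, in both comparisons.

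MET, the hepatocyte growth factor receptor, was well above the array median in both lines and was not called between them. Without field 203510_at read 9.96, 11.40 and 10.87 in CL1-0 and 10.45, 10.51 and 10.55 in CL1-5. Their difference was −0.24 ± 0.43 (95% interval −1.19 to 0.71; adjusted p = 0.834). Under the field CL1-0 read 10.12, 11.78 and 11.21 and CL1-5 9.71, 9.71 and 10.46, a difference of −1.08 ± 0.43 that missed the threshold (adjusted p = 0.137) and passed with the block (adjusted p = 0.0148). Without the CL1-0 field array of replicate 1, its lowest, the difference was −1.53 (adjusted p = 0.0318), and on the 8 arrays with spike-in signal −1.41. The other 3 probe sets gave −0.54 to 0.08 without field and −0.70 to −0.37 under it, none called. They correlated with each other at 0.80 to 0.86 over the 12 arrays and with 203510_at at −0.03 to 0.17.

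PDGFRA, which binds PDGFA and PDGFC dimers, was above the array median in CL1-5 and below it in CL1-0. On 203131_at the levels were 4.22, 4.39 and 3.36 in CL1-0 without field, below the array median, and 6.76, 7.23 and 7.71 in CL1-5. The difference was 3.24 ± 0.71 (adjusted p = 0.0103), at least 2.38-fold. Without the CL1-5 no-field array of replicate 3, the highest, it was 3.005 and no longer called (adjusted p = 0.0559). Under the field it was 4.30 ± 0.71 (adjusted p = 0.00188), at least 2.16-fold, as CL1-0 read 1.98, 2.17 and 4.42. The 3 probe sets of PDGFRA that were not tested lay below the median on nearly all arrays, and of these 215305_at read 2.33 to 5.39 in CL1-0 and 5.12 to 6.10 in CL1-5.

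PDGFRB, the receptor for PDGFB dimers and a marker of pericytes, was near or below the array median in every group. Its single probe set, 202273_at, read 6.17, 3.45 and 6.36 in CL1-0 and 5.45, 5.60 and 6.14 in CL1-5 without field, and 3.21 to 6.34 under it. The difference was 0.41 ± 1.04 without field (95% interval −1.87 to 2.68) and −0.02 ± 1.04 under it. These readings set no level for PDGFRB in either line.

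**Figure D2:**
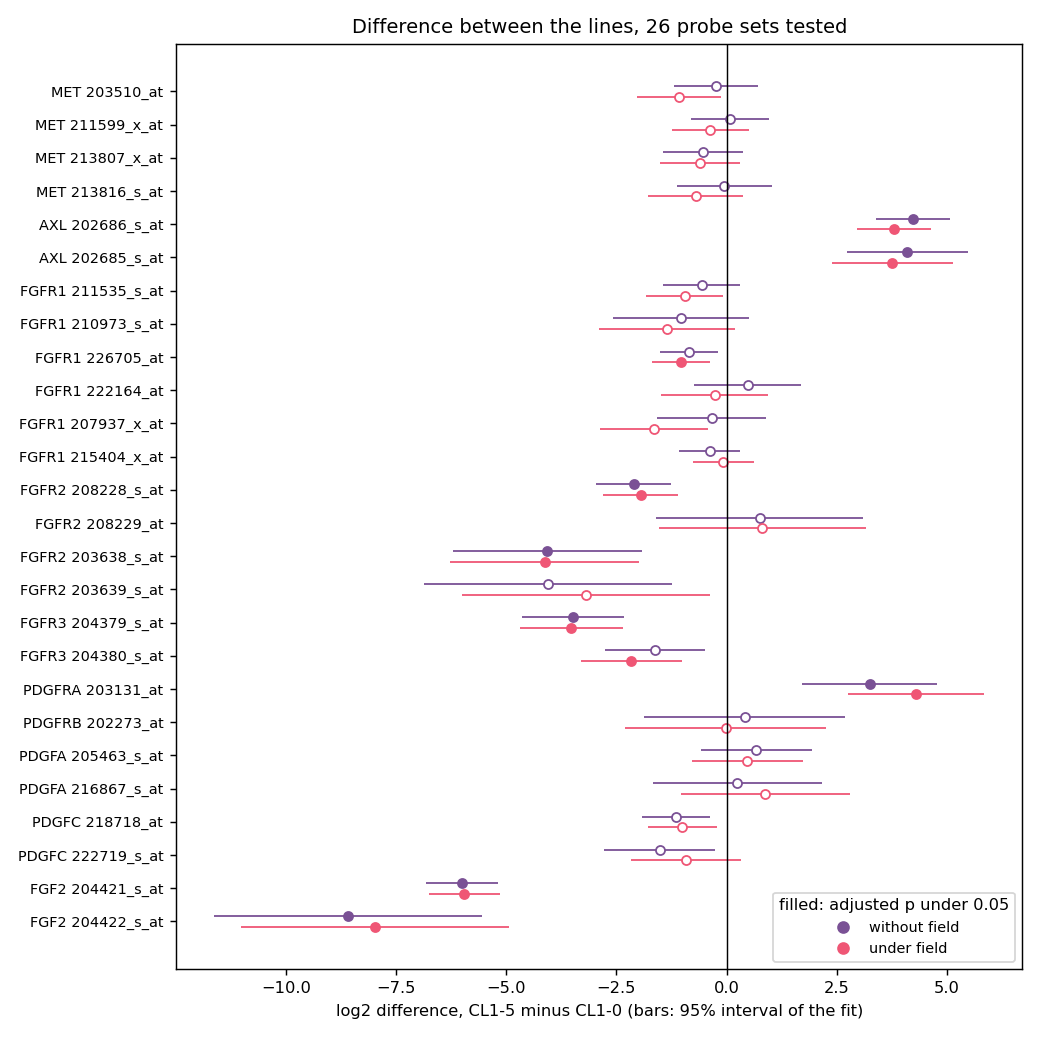
Log2 difference between the lines (CL1-5 minus CL1-0) for the 26 tested probe sets without field and under it, with the 95% interval of the fit; filled points have an adjusted p under 0.05. The called probe sets of FGF2, FGFR2 and FGFR3 lie to the left and those of AXL and PDGFRA to the right in both comparisons, while FGFR2 208229_at, which was not called, lies to the right of 0.

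The field itself called 0 of the 26 probe sets in CL1-0, 0 in CL1-5, 0 averaged over the lines and 0 for the difference between the lines, by limma with adjustment over all probe sets. In each of these comparisons 0% of all 31890 were called. Without a block 337, 531, 296 and 382 had an unadjusted p under 0.05, among which were 0 of the 26. With the replicate block 0 of the 26 were called as well, and 1 probe set of all, higher, in CL1-0 (0.00314%). Unadjusted p-values under 0.05 rose with it to 907, 2143, 1007 and 1653, among which were 0, 0, 0 and 1 of the 26. The spread without the block includes what same-numbered arrays share, so its 0 of the 26 does not exclude a response. The field responses of the 26 in CL1-0 ran from −1.46 (FGFR2, 203639_s_at) to 0.68 (FGFR1, 222164_at), with 19 above 0. In CL1-5 they ran from −1.34 (PDGFRB) to 0.73 (PDGFA, 216867_s_at), with 13 above 0. The extremes at the low end were probe sets near or below the array median.

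Intervals of the fit without a block show what that fit can bound. For AXL 202686_s_at the response to the field was 0.47 ± 0.38 in CL1-0 (95% interval −0.36 to 1.30) and 0.04 ± 0.38 in CL1-5 (−0.79 to 0.87). The CL1-0 arrays of AXL did not overlap between field and no field, the only case among the 26, where 3.68% of all probe sets did not (2.16% higher under the field, 1.52% lower). In CL1-5 this held for 0 of the 26, against 5.47% of all (2.64% higher, 2.83% lower). FGF2 204421_s_at changed by −0.10 ± 0.37 in CL1-0 (−0.91 to 0.71) and by −0.04 ± 0.37 in CL1-5 (−0.85 to 0.77).

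FGFR3 204379_s_at gave 0.07 ± 0.53 and 0.03 ± 0.53, and PDGFC 218718_at 0.06 ± 0.36 and 0.20 ± 0.36, in CL1-0 and CL1-5. The interval lay within 1 log2 unit either side of 0 for 4 of 26 probe sets in CL1-0, 7 in CL1-5, 15 averaged over the lines and 0 for the difference between the lines. In this fit a change of up to a doubling therefore could not be bounded for most of the 26 in a single line. The fit had no replicate block, so the interval widths include deviations that same-numbered arrays share. The pairs of AXL 202686_s_at in CL1-0, for example, differed by 0.56, 0.34 and 0.51. Intervals within 1 log2 unit were not counted with the block. MET 203510_at was higher under the field in every replicate pair of CL1-0, by 0.16, 0.38 and 0.35, and was lower in every pair of CL1-5, by −0.74, −0.80 and −0.09. Its responses were 0.30 ± 0.43 and −0.54 ± 0.43, neither called, and the test of their difference gave −0.84 ± 0.61 (limma, adjusted p = 1). No other MET probe set showed this in both lines. Of the 26 probe sets, 8 were higher and 0 lower in every pair of CL1-0, and 2 were higher and 4 lower in every pair of CL1-5. The share of all probe sets with such pairs was not counted, so these counts are a description only.

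**Figure D3:**
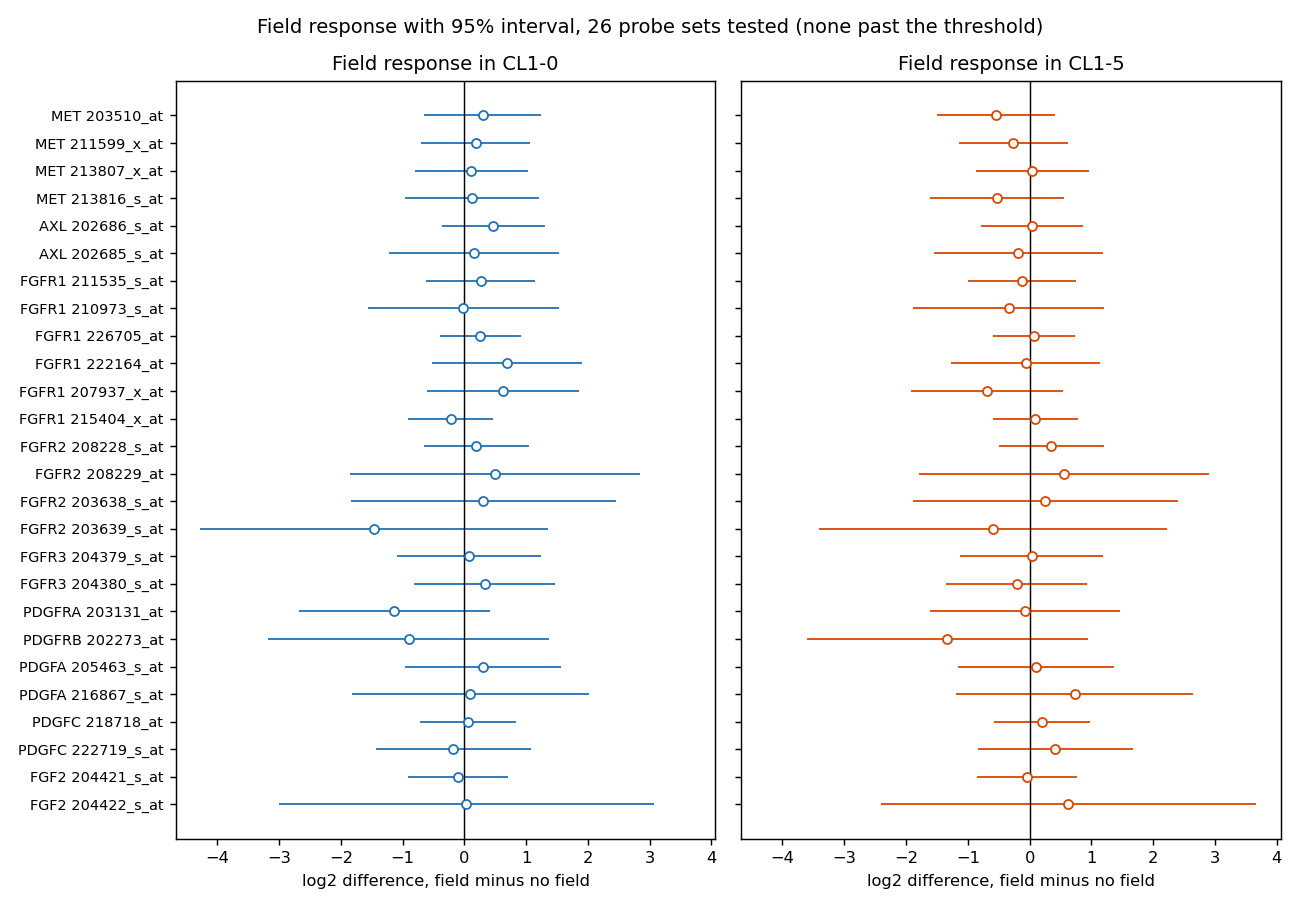
Field response (field minus no field, log2) of the 26 tested probe sets in CL1-0 and CL1-5 with the 95% interval of the fit; open points did not pass the threshold, and 0 passed. Intervals are narrower for AXL 202686_s_at and FGF2 204421_s_at than for FGF2 204422_s_at and FGFR2 203639_s_at. The latter probe sets held readings far below the array median in CL1-5.

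Other genes of these pathways were counted in 7 lists, each gene by its leading probe set, in the comparison of the lines without field. There 12.1% of all probe sets were called, and 28.5% with the block. With only the leading probe set of each gene in the fit, 2487 of 13838 were called, a larger share that is the closer match to these lists. In the list on MET and its relative RON, 3 of 21 tested genes were higher and 1 lower in CL1-5 (5 and 1 with the block). CD44, a hyaluronan receptor that acts as a MET co-receptor, was higher by 7.76 ± 0.81, and ITGA6, a laminin receptor subunit, by 3.74 ± 0.37. LRIG1, which brings about degradation of receptor kinases, was higher by 2.62 ± 0.34. SPINT2, an inhibitor of the proteases that activate hepatocyte growth factor, was lower by −4.18 ± 0.32. HGF itself lay near the array median in both lines (−0.30 ± 0.37).

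Among TAM family receptors, ligands and partners 4 of 14 were higher and 1 lower (5 and 2 with the block), none of the 4 being a receptor. JUN and FOSL1, subunits of AP-1, were higher by 3.90 ± 0.24 and 2.71 ± 0.66. LGALS3, a galectin reported as a TAM ligand, was higher by 3.30 ± 0.40, and SOCS1, an inhibitor of cytokine signalling, by 3.30 ± 0.89. The calls on FOSL1 and SOCS1 ended in 4 and 5 of 24 other settings, and leaving out the CL1-0 no-field array of replicate 1 took SOCS1 to 2.14. The fellow receptors TYRO3 and MERTK differed by −0.15 ± 0.27 and −0.30 ± 0.32, neither called.

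In the list of FGF ligands, receptors and adaptors 1 of 19 was higher and 2 were lower, or 2 and 4 with the block. FGF1, the acidic fibroblast growth factor, was higher by 4.00 ± 0.58 (adjusted p = 0.00082), at least 6.63-fold, with levels of 4.08, 4.32 and 5.74 in CL1-0 and 9.18, 8.19 and 8.77 in CL1-5. This ran against FGF2, the lines each being high for 1 of these ligands. FGFR4 was lower by −1.74 ± 0.33. FLRT3, a membrane partner of FGF receptors, was lower by −1.27 ± 0.37, a call that ended in 11 of 23 other settings.

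Among heparan sulfate proteoglycans and their enzymes, which FGF ligands need to bind, 6 of 24 were higher and 3 lower (10 and 4 with the block). The glypicans GPC6 and GPC3 were lower by −6.78 ± 0.35 and −3.84 ± 0.52, as was the sulfotransferase HS6ST2 by −3.58 ± 0.43. The sulfatase SULF2, which takes 6-O-sulfate off these chains, was higher by 3.48 ± 0.32. GPC6 read 11.16, 11.91 and 12.20 in CL1-0 and 4.78, 5.09 and 5.07 in CL1-5, so its fall is at least 51.8-fold.

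In the list of PDGF ligands, processing enzymes and related receptors 2 of 21 were higher and 3 lower (6 and 3 with the block). PLAU and PLAT, the urokinase and tissue plasminogen activators, were higher by 9.92 ± 0.55 (at least 364-fold) and 6.25 ± 1.11 (at least 13.3-fold). PLAT cleaves the CUB domain from PDGFC. KITLG, the ligand of the receptor KIT, was lower by −6.78 ± 0.76, and VEGFC, a lymphatic growth factor, by −2.89 ± 0.32.

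Of 31 tested adaptors and kinases shared by these receptors 3 were higher and 3 lower (5 and 9 with the block). The adaptors SHC4 and SHC3 were higher by 4.78 ± 0.93 and 2.97 ± 0.71, and GRB14 and GAB2 lower by −5.97 ± 1.07 and −2.33 ± 0.54. With each low value set to its array's median, SHC3 differed by 0.25 and was not called (adjusted p = 0.306). Its call also ended with only the groups compared (0.105) and without the CL1-0 no-field array of replicate 3 (0.055) or the CL1-5 no-field array of replicate 2 (0.0546) or 3 (0.0742). The GAB2 call ended in 4 of 24 other settings, among them without the CL1-5 no-field array of replicate 2 (adjusted p = 0.0501).

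Among genes known to respond to FGF and ERK signalling 5 of 16 were higher and 1 lower (8 and 2 with the block). CCND1, the cyclin of G1, was higher by 5.59 ± 0.36. The ERK phosphatases DUSP5 and DUSP4 were higher by 5.04 ± 0.40 and 4.82 ± 0.73, and PHLDA1 by 3.01 ± 0.21. The list medians lay between −0.08 for the shared adaptors and 0.56 for the responsive genes, beside −0.01 over all probe sets. In each of the field comparisons 0 genes of all 7 lists were called, with the block as well.

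**Figure D4:**
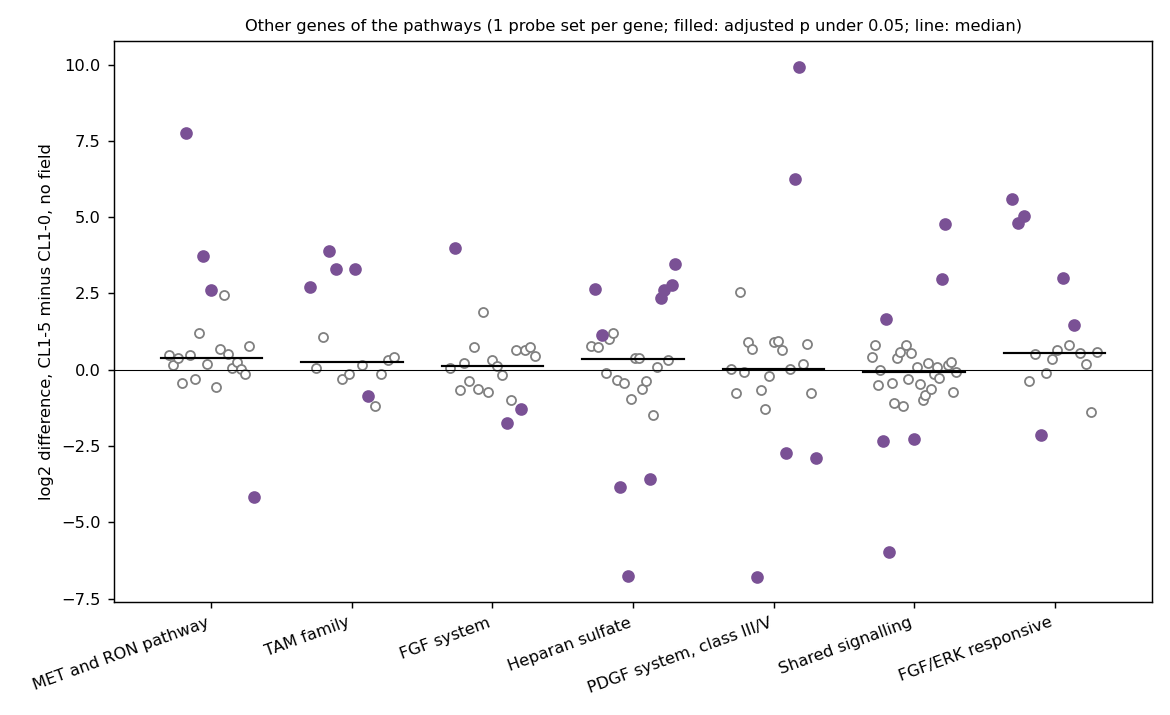
Log2 difference between the lines without field (CL1-5 minus CL1-0) for the tested genes of the 7 lists, 1 probe set per gene; filled points have an adjusted p under 0.05 and lines are list medians, from −0.08 to 0.56. Each list holds genes called in both directions, and most of its genes were not called in this fit.

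The genes whose log2 values followed most closely those of the 4 genes whose leading probe sets had the largest called line differences without field, over the 12 arrays, were MAP2 (Pearson's r 0.995) and TPD52L1 (0.995) for FGF2, and GABBR2 (0.995) and ANGPT2 (0.987) for AXL. For FGFR3 they were FZD1 (0.986) and CFD (0.983), and for PDGFRA FRMD4A (0.975) and KCNMA1 (0.970). The points share the split into 2 lines of 6 arrays, which any gene that differs between the lines also carries. MAP2, a microtubule protein of neurons, read 12.36 to 13.50 in CL1-0 and 2.00 to 4.62 in CL1-5. FZD1, a WNT receptor, followed FGFR3 over a smaller range, 9.81 to 10.65 in CL1-0 and 8.06 to 8.76 in CL1-5.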

How the data were processed

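RNA from 12 samples was hybridised to 1-colour Affymetrix arrays. The deposited intensity values are linear MAS5 signals per the submitters' processing notes; their trimmed means are 500.1 on every array, and no detection calls were used here. Gene symbols come from the platform annotation table. Values under 1 were set to 1 and log2 was taken. After removing 62 controls, 31890 of 54613 probe sets lay above their array's median on at least 3 arrays. They were fitted with limma 3.58.1 (R 4.3.3, 4 group means, trended eBayes, Benjamini-Hochberg 0.05), a procedure tested on simulated data. The simulation drew independent noise for each array, without the shared deviations of same-numbered arrays, so it says nothing about their effect. Each array's own median served as floor for "at least" folds. Same-numbered arrays of different groups correlated at 0.254 to 0.665 in their deviations from group means (others at most 0.347); the labels do not say what a shared number marks. All members and their probe sets were named; lists named up to 4 called genes with the largest difference, or the 2 with the smallest p, and the 2 nearest genes by correlation for 4 members. Members, lists and markers were chosen with earlier results of these data known. Of 219 list entries 203 were matched. Each p-value sets a difference against the spread among arrays of the same group and concerns these samples only. Without the block that spread includes what same-numbered arrays share.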

Additional observations from a re-analysis of the deposited data

Results flagged for a closer look

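The response of MET 203510_at to the field ran in opposite directions in the lines: every replicate pair of CL1-0 was higher under the field and every pair of CL1-5 lower. The difference of the responses was −0.839 ± 0.614 (SE, limma, adjusted p = 1), so the test of the difference did not pass. No other MET probe set showed the pattern in both lines. 211599_x_at was lower in every pair of CL1-5 but gave −0.18, 0.37 and 0.37 in CL1-0. 213807_x_at was higher in every pair of CL1-0 but gave −0.21, −0.34 and 0.69 in CL1-5. The pairs of 213816_s_at were mixed in both lines.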

How the results depend on the processing

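Without field, 13 of the 26 probe sets were called with the replicate block and 14 with a block for spike-in batch, against 8, and 7 to 9 with an array left out. Of all 31890, these blocks called 9094 and 8994, against 3864, and 2577 to 4362 were called with an array left out. Under the field, 5 were called with 1 probe set per gene, where only 10 could be, against 10, and 7 to 11 with an array left out. Over all, 2691 of 13838 were called with 1 probe set per gene, against 4286 of 31890, and 2635 to 4592 with an array left out. Field comparisons called 0 of the 26 in every setting run, and the other counts of the 26 stayed within 1.5 times. Among differences larger than their SE, signs turned for PDGFA 205463_s_at between lines without field on arrays with spike-in signal (−0.13), and with each low value set to its array's median for the field response in CL1-0 of PDGFRA 203131_at (0.061) and FGFR2 203639_s_at (0.0438), the averaged response of the latter (0.0107) and the difference of responses of PDGFRA (−0.138). The response of MET 213816_s_at in CL1-5 ran from −0.93 to 0.061 with an array left out. None of these was called. The 18 called differences kept their sign in every setting run, and of those no larger than their SE 10 of 15 between lines and 69 of 89 for the field turned in at least 1 setting, among them PDGFA 216867_s_at without field (0.24, and −0.96 on arrays with spike-in signal). Fitting only the groups compared gives no averaged response and no difference of responses. The replicate block changed no call on the 26 probe sets beyond those printed beside them. The cause was not tested. Levels near the array median bound a fold rather than measure it.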
